A study of Mus musculus with 4 samples.

Results

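This account compares the back muscle of mouse embryos labelled Myf5-/- with wild-type back muscle, both taken at E13.5, over every gene that the array names. There was 1 Affymetrix array a side, 2 of the 4 arrays of the study, whose other arrays hold wild-type (WT) and MyoD-/- limb muscle of the same stage. All 4 groups carry the BALB/c background according to the labels, the WT groups with no further allele, the mutants as null for Myf5 or for Myod1. The series title sets the work in the development of motor neurons. The sources used here do not give the way the Myf5 allele was made, the number and sex of the embryos behind an array or the outline of the dissected piece. The members were 18193 named genes, of which 14685 reached a scaled signal of 100, the floor under which no level was read, in at least 1 back array. The remaining 3508 were under that floor in both. With single arrays there is no replicate error, no test and no p-value, and each value below compares 1 hybridised sample with 1 other.

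Myf5 is one of the helix-loop-helix factors that commit cells to skeletal muscle, and the first of them to be expressed in the myotome, the part of the somite that forms the muscles of the back and body wall. Muscle of the back also draws on Myod1, which can start myogenesis where Myf5 is missing. The sclerotome, the neighbouring part of the same somite, forms the cartilage of vertebrae and ribs, and some Myf5 alleles are known for ribs that do not form fully while others leave them in place. Cartilage cells are recognised by type II and type IX collagen and by the factor Sox9, and muscle fibres by the proteins of the sarcomere, the contractile unit. A dissected piece of back can hold both tissues, with nerve, vessels, skin and connective tissue. Where the genes of a tissue are lower, fewer of its cells in the piece and less RNA in each cell cannot be told apart.

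The targeted gene did not separate the arrays. The WT back array read 508 for Myf5, and the array labelled Myf5-null read 583 (log2 ratio 0.20); the limb arrays read 507 (WT) and 1019 (MyoD-null). A probe outside the deleted part of a gene checks nothing, and the sources used here do not say where the Myf5 probes lie relative to the allele, so the genotype is taken from the label and the array is called by it. In the limb Myod1 read 1439 in WT and 688 in the array labelled MyoD-null (-1.06), well above the floor, so that genotype too rests on the label. In the back Myod1 was 2871 against 2334 (log2 ratio -0.30), with 0.47 in a dimmer probe set (147 against 204). Myog, which drives differentiation, was 4935 against 3405 (-0.54). Myf6, the neighbour of Myf5 in the genome, was under 100 in all 4 arrays. Of the Mef2 factors, which work with these regulators, Mef2c was lower in each of 5 probe sets, from -0.31 to -1.43, with the brightest at 5476 against 2965 (-0.89). Mef2a was below 0 in each of its 5 measured probe sets, the brightest at 1658 against 1393 (-0.25). Mef2d went the other way in its brightest probe set, at 513 against 965 (0.91), and the dimmer ones gave 0.40 and -0.61. None of the 6 measured regulators differed 2-fold.

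The 2 back arrays also differed in ways that are not about single genes. Signals of 100 or more were found for 57.9% of probe sets on the WT back array and 63.6% on the other. The ratio of signal at the 3′ end to that at the 5′ end was 6.45 against 9.46 for Gapdh and 3.20 against 4.28 for Actb, and the added spike transcripts moved the same way (dap 1.55 against 1.84, phe 5.03 against 7.40). The limb arrays went the other way, with 12.2 in WT against 8.06 in MyoD-null for Gapdh and 6.88 against 3.86 for Actb, and their spike ratios were above those of the back (dap 6.23 and 5.12). The part of these differences in the ratios between back arrays, and in the comparisons with the limb arrays, was not tested. Probe sets of 1 gene differed in log2 ratio with a median SD of 0.38 over 6630 genes, which covers probes and not embryos.

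A gene was counted as lower or higher when its signals were 2-fold apart or more, with 200 or more in the brighter one. In the array labelled Myf5-null, 364 genes were lower (2.48% of those measured) and 808 were higher (5.50%). The excess of higher genes lay at the dim end: with the brighter array between 200 and 500, 714 were higher and 278 lower. The excess was smaller at 500 to 1000, with 72 higher and 49 lower, and lower genes were the more numerous above that, with 14 higher and 21 lower at 1000 to 2000 and 8 higher and 16 lower at 2000 and above. The median log2 ratio of all measured genes was 0.05. The split also hung on the scaling, since 68.9% of the counted genes were higher here, 50.1% after quantile normalization (520 higher, 517 lower) and 35.6% after loess (273 and 494). With 500 or more in the brighter array, 1.11% of 7741 genes were lower and 1.21% higher.

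**Figure D1:**
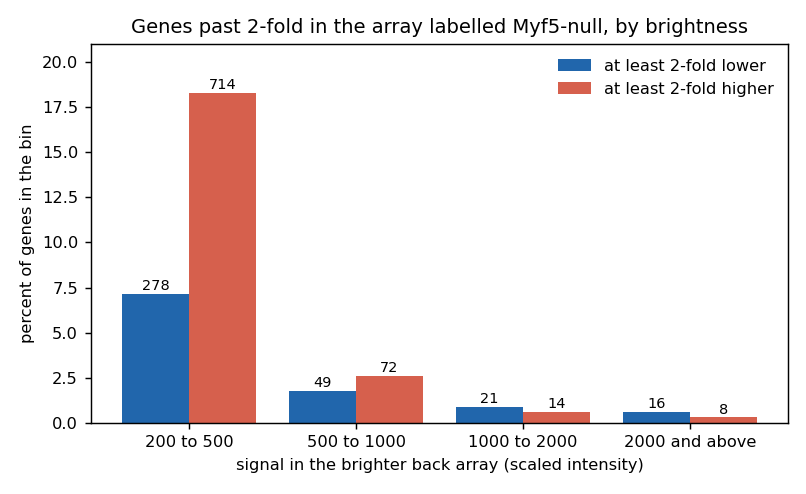
Percent of genes at least 2-fold lower or higher in the array labelled Myf5-null, by the signal of the brighter back array (x axis, scaled intensity), with the number of genes over each bar. Higher genes outnumber lower ones between 200 and 500 (714 against 278), and lower genes outnumber higher ones from 1000 on.

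Genes of the axial skeleton were lower, those of cartilage most of all. Of 61 measured genes in the 6 skeletal lists, 45 lay below 0, with 16 at least 2-fold lower (26.2%) and 1 higher, with a median log2 ratio of -0.51. Among all measured genes 46.1% were below 0 and 2.48% were at least 2-fold lower. The cartilage collagens had the lowest median, -2.16 over 7 measured members of 8, with 6 below 0 and 4 at least 2-fold lower. Cartilage matrix proteins and regulators followed with a median of -0.80 over 21 of 22, with 18 below 0 and 8 at least 2-fold lower. Sclerotome factors had a median of -0.73 over 10 of the 12 on the array, with 8 below 0 and 3 lower. In the limb pair, where Myod1 was the targeted gene, the same 3 lists had medians of 0.19, 0.28 and 0.01 and held no gene at least 2-fold lower.

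**Figure D2:**
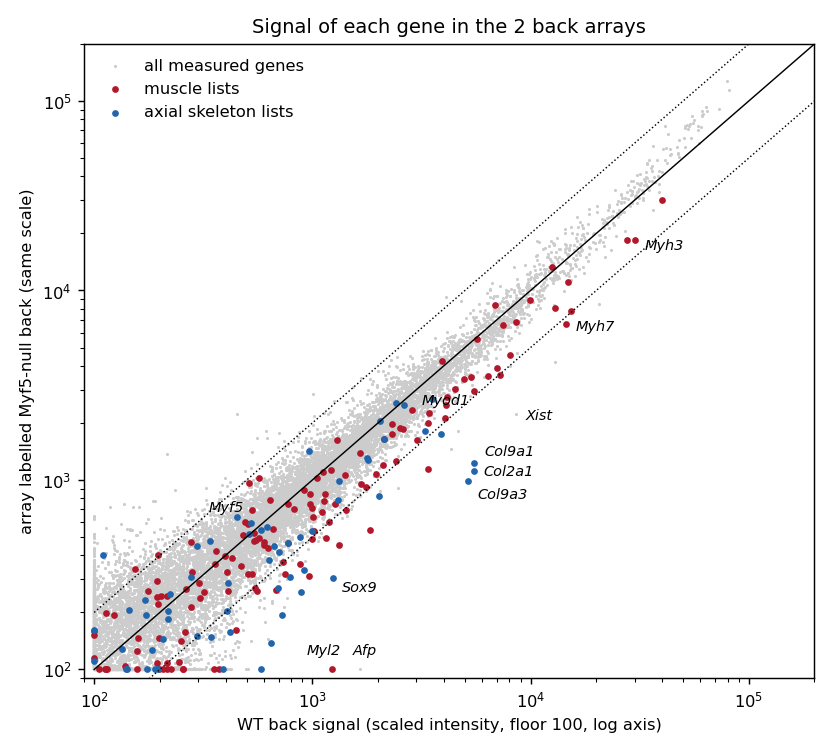
Signal of each measured gene in WT back (x axis) and on the Myf5-null back array as labelled (y axis), both as scaled intensity with a floor of 100 on log axes; the solid line marks equal signal and the dotted lines 2-fold. Genes of the skeletal lists (blue) such as Col2a1, Col9a1 and Col9a3 lie far below the line, and most muscle genes (red) lie between the line and 2-fold lower.

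Type II collagen, Col2a1, forms the fibrils of cartilage and had 5497 in WT back and 1119.7 under the Myf5-null label (log2 ratio -2.30), beside 3344 and 4174 in the WT and MyoD-null limb. The 3 chains of type IX collagen, which coats those fibrils, went with it. Col9a1 was 5482 against 1225 (-2.16), with -1.47 in its second probe set. Col9a3 was 5162 against 992 (-2.38), with -1.98 in the next probe set and -0.05 in one at the floor. Col9a2 was 582 against under 100, at least 5.82-fold lower. The array labelled Myf5-null was the lowest of the 4 for each of these chains, and the limb arrays lay near WT back. Type XI collagen moved less: Col11a1 was 3274 against 1814 (-0.85), with -1.02 in a second probe set. Col27a1 was the exception, at 964 against 1414 (0.55), but -0.26 in its other probe set. Col10a1, the collagen of hypertrophic cartilage, was under 100 in both back arrays.

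The regulators of cartilage formation were lower in part. Sox9, which starts the cartilage programme, was 1247 against 304 (-2.04), and its other probe sets gave -0.48 (750.1 against 539) and 0.88 near the floor. Sox6, a partner of Sox9, was below 0 in 3 of 4 probe sets, the brightest at 667 against 446 (-0.58) and the others at -0.97, -0.72 and 0.23. Sox5 was 344 against 149 in its brightest probe set (-1.21), while its other probe sets gave 0.40, -0.07, 0.49 and 0.02, so that its direction rests on 1 probe set. Of the matrix, the link protein Hapln1 was 723 against 194 (-1.90) and below 0 in all 4 probe sets, with -1.21, -0.32 and -0.41 in the dimmer ones. Aggrecan, Acan, the large proteoglycan that Hapln1 ties to hyaluronan, was 695 against 268 (-1.37). Mia, a protein secreted by cartilage, was 646 against 137 (-2.23), and chondromodulin, Cnmd, which keeps vessels out of cartilage, 884 against 255 (-1.80). Further lower members were Cytl1 at 918 against 336 (-1.45), Papss2, which makes the sulfate donor for proteoglycans, at 794 against 308 (-1.37), and the matrilin Matn1 at 405 against 203, just short of 2-fold.

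Several genes of the list of cartilage matrix and regulators stayed close between the back arrays, though 18 of its 21 measured genes lay below 0. Pth1r, a receptor of growing cartilage, was 2416 against 2558 (0.08) and Ihh 133 against 128 (-0.05). So genes of cartilage did not all differ between the back arrays.

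Of the sclerotome factors, Pax1, which marks the ventral sclerotome and the vertebral discs, was 418 in WT back against 157 (-1.41). Foxc2, a forkhead factor of vertebral and rib precursors, was 389.7 against under 100, at least 3.90-fold lower. Ptch1, the hedgehog receptor and a target of that pathway, was 2025 against 825 (-1.30), but Gli1, another target, was 172 against 194 (0.17). Zic1 was 877 against 498 (-0.82), with -1.14 in a second probe set. Tbx18 was 703 against 418 (-0.75) and Meox1 2122 against 1651 (-0.36). Pax9 and Nkx3-2 were under 100 in both back arrays.

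Other parts of the skeleton did not move as cartilage did. The notochord list had 4 of 5 measured genes above 0 and no gene past 2-fold, with Shh at 295 against 448 (0.60) and Foxa2 at 145 against 206 (0.51). It is a thin measure, since T and Noto had no probe set and the other measured members are keratins. Krt8 was 0.51, with -0.05 and -0.01 in its other probe sets, Krt18 was 0.02, and Krt19 was 189 against under 100. In the bone list 4 of 5 were below 0 by at most 0.54, with Sp7, a factor of osteoblasts, at 218 against 203 (-0.10), and Alpl, a phosphatase of bone and other tissues, was the exception at 109 against 400.4 (1.87). Tendon and ligament genes had a median of -0.10 over 13, with 8 below 0, and -0.41 with the median of a gene's probe sets in place of the brightest. Tnc, a matrix protein of tendon and perichondrium, was the only one at least 2-fold lower, at 3892 against 1750.2 (-1.15). Scx, the tendon factor, was 278 against 307 (0.14), and Tnmd 584 against 546 (-0.10). Mkx, of the same list, was lower, at 296 against 150 (-0.98), and Thbs2 was 1309 against 785 (-0.74), with -0.43 and -0.87 in its other probe sets. Of the 12 further probe sets of the tendon list 10 were below 0, with a median of -0.43.

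**Figure D3:**
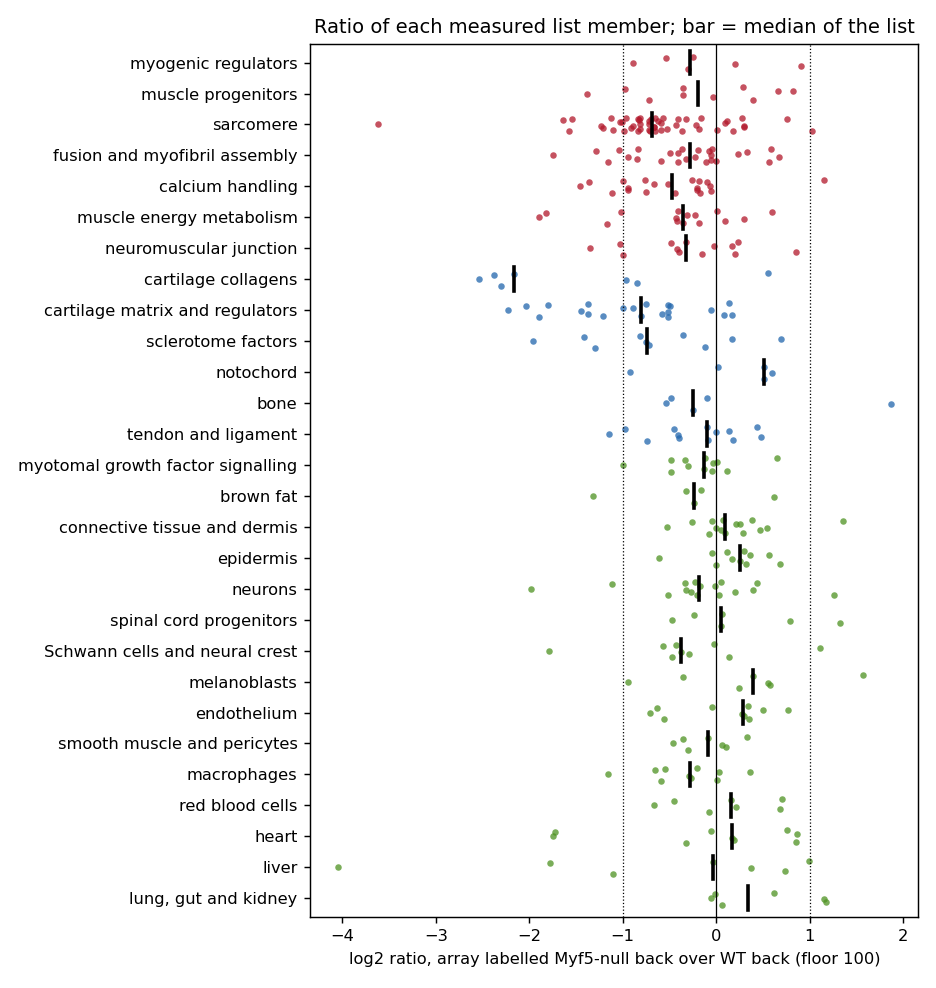
Log2 ratio of each measured member (points) of the muscle (red), axial skeleton (blue) and neighbouring tissue (green) lists, Myf5-null label over WT back, with the list's median as a bar and dotted lines at 2-fold. The cartilage collagens have the lowest median (-2.16), the sarcomere list has 41 of 50 members below 0, and the neighbouring tissues scatter on both sides.

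Genes of skeletal muscle were also lower as a group. Of 140 measured genes in the 7 muscle lists, 110 lay below 0 (78.6%), with a median of -0.42. Of these 140, 25 were at least 2-fold lower (17.9%, against 2.48% of all measured genes) and 2 higher. Meox1 and Meox2 stand in both the muscle progenitor and the sclerotome lists. The limb pair had 88 of 134 below 0, 13 lower and 3 higher (5.21% and 2.30% of all genes in that pair), with a median of -0.33. Sarcomere genes had a median of -0.69 over 50 measured of 53 on the array, with 41 below 0, 10 lower and 1 higher. The summed signal of the list was also lower, by a log2 ratio of -0.59. Its 3 most abundant members in WT back were the actins Actc1 and Acta1 and the embryonic myosin Myh3, none of them 2-fold different: the actins Actc1 and Acta1 were 39924 against 30135 (-0.41) and 27613 against 18398 (-0.59), and Myh3 was 30247 against 18582 (-0.70).

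Among the myosin heavy chains, the slow form Myh7 was 14579 against 6642 (-1.13) and the perinatal form Myh8 was 3389.8 against 1145 (-1.57). Of the light chains, Myl2, the regulatory chain of slow and cardiac muscle, read 1226 in WT back and under 100 on the other 3 arrays, so that the back arrays were at least 12.3-fold apart. Myl3, its essential partner, was 1013 against 538 in its brightest probe set (-0.91) and lower by more in the others, at 1679 against 228 (-2.88) and 438 against under 100 (-2.13, a bound). Mylpf, the fast regulatory chain, was 12925 against 8115 (-0.67), while Myl4, the embryonic and atrial chain, was 3908 against 4236 (0.12).

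The giant proteins that lay out the sarcomere were lower. Nebulin, Neb, which sets the length of thin filaments, was 1317 against 452 (-1.54). Titin, Ttn, was 7213 against 3584 (-1.01) and below 0 in all 6 probe sets, from -0.16 to -1.12. Csrp3, found at the Z disc, was 968 against 309.9 (-1.64), and Ldb3, from the same place, 745 against 319 (-1.23), with -0.36 and 0.59 in its other probe sets. Of the thin filament, fast troponin Tnnt3 was 1149 against 497 (-1.21) and the capping protein Tmod1 1427 against 697 (-1.03). Smpx, a small muscle protein, was 557 against 259 (-1.10). Ankrd23 was the one member at least 2-fold higher, at 196 against 400.3 (1.03), and under 100 in both limb arrays.

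Genes of fusion and myofibril assembly had a median of -0.27 over 26 measured, with 20 below 0 and 4 lower. Unc45b, the chaperone that folds myosin, was 1836 against 544 (-1.75). Mymk and Mymx, the membrane proteins that fuse myoblasts, were 1953 against 1082 (-0.85) and 1412 against 1060.1 (-0.41). Smyd1, a methyltransferase of the sarcomere, was 882 against 360.0 in its brightest probe set (-1.29), but its others gave 0.37, -0.25 and 0.26. The dystrophin partner Sgca was 246 against 109.7 (-1.16), and dysferlin, Dysf, was 206 against under 100, at least 2.06-fold lower. Cdh15, the cadherin of myoblasts, was 1215 against 1126 (-0.11).

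Calcium handling genes were below 0 in 19 of 20, with a median of -0.47 and 3 at least 2-fold lower. The calcium release channel Ryr1 was 1761 against 915 (-0.94) and the fast calcium pump Atp2a1 2428 against 1262 (-0.94). Jph1, which holds the junction between the cell membrane and the calcium store, was 446 against 162 (-1.46). Trdn and Cacng1 were found under 100, at least 2.56-fold and 2.16-fold lower, with 0.95 in another probe set of Trdn. Cacnb1 alone was higher, at 153 against 339.6 (1.15), with -0.62 and 0.00 in its other probe sets. Muscle energy metabolism had a median of -0.36 over 15, with 11 below 0 and 4 lower. Of these, myoglobin, Mb, was at least 3.72-fold lower, Adssl1 at least 3.53-fold and Ampd1 at least 2.24-fold, at 372, 353 and 224 in WT back, and the glycolytic enzyme Pgam2 was 992 against 489.9 (-1.02).

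Muscle progenitor genes were mixed, with 6 of 10 below 0 and a median of -0.19. Pax7, which marks muscle stem cells, had 681 against 261 (-1.38), and a dimmer probe set gave -0.59. Met, the receptor through which progenitors migrate, was 729.6 against 369.6 (-0.98). Pax3, which acts before Pax7, was 113 against 199 (0.82), Lbx1 123 against 194 (0.66) and Msc 1121 against 1096 (-0.03).

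The neuromuscular junction is where the motor axon meets the fibre, and 9 of its 13 measured genes were below 0, with a median of -0.32. The fetal acetylcholine receptor subunits Chrna1 and Chrng were 1193 against 597 and 544 against 267 (-1.03), and the receptor kinase Musk was 256 against under 100, at least 2.56-fold lower. Those 3 were the members at least 2-fold lower. The others lay closer, with Rapsn, which clusters the receptors, at 428 against 386 (-0.15), Dok7, which activates Musk, at 361 against 423 (0.23), and Agrn at 5666 against 5578 (-0.02). Myogenic factors bind the letters CANNTG, the E-box, and often CAGCTG. The 250 bases before the start of each of the 3 genes are given to show these letters (RefSeq, GRCm38.p6, 5′ to 3′ on the gene's strand, every CANNTG in capitals, each of which reads as CANNTG on both strands):
Chrna1, chr2:73580339-73580588, minus strand: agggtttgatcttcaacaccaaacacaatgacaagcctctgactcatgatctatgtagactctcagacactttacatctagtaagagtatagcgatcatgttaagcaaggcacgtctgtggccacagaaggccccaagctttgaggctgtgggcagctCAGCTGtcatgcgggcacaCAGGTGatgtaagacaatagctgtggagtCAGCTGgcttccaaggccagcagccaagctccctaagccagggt
Chrng, chr1:87205561-87205810, plus strand: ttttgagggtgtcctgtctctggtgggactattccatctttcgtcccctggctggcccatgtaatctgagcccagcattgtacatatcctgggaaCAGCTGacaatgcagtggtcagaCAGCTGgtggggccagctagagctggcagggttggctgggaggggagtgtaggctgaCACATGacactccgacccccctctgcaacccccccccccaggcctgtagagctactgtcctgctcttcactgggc
Musk, chr4:58285712-58285961, plus strand: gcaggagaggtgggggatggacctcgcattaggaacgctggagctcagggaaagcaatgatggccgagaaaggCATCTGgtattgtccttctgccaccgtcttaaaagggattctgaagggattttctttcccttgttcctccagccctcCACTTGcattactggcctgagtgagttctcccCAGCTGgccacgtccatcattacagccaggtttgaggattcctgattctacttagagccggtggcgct
CAGCTG, counted within the CANNTG, stood 2 times before Chrna1, 2 times before Chrng and 1 time before Musk.

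Of the 41 muscle or skeletal genes that were at least 2-fold lower, 31 had a promoter in the RefSeq table. CAGCTG lay within 250 bases before the start in 32 of 98 measured muscle genes with a promoter there (32.7%), in 6 of 44 of the axial skeleton (13.6%), in 12.2% of 11753 measured genes and in 12.8% of all 27025 promoters. Among the muscle genes at least 2-fold lower it lay in 4 of 19 (21.1%), which is a smaller share than in measured muscle genes as a whole, and in the axial skeleton in 2 of 12 (16.7%). CANNTG in any form was in 58.7% of measured genes, 77.6% of measured muscle genes and 68.4% of the lower ones. For comparison with the junction genes, the 2 lower skeletal genes that hold CAGCTG are given in the same form, each with it once and no other CANNTG:
Acan, chr7:79052976-79053225, plus strand: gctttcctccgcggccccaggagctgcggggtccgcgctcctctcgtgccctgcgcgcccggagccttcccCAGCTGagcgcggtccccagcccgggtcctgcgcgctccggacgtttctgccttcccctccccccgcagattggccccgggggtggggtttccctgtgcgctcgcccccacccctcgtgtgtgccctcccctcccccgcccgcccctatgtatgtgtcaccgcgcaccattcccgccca
Col9a2, chr4:121039316-121039565, plus strand: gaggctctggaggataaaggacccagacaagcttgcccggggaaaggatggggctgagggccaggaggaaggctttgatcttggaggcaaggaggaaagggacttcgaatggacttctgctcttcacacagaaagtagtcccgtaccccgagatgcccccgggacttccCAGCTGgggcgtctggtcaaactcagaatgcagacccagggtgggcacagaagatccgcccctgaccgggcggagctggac
A match describes letters in a window and is neither a binding site nor a cause.

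The limb arrays were set beside the back arrays to see where each back array stood. The limb is another tissue, and 1 of its arrays is labelled MyoD-null. WT limb was already dimmer than WT back for muscle genes such as Acta1 (9595 against 27613) and Neb (172 against 1317). Tpm3 did not follow (10030 against 9932). The positions therefore also hold the difference of limb from back and cannot tell which back array was unusual. For a lower gene, the array labelled Myf5-null was called alone low when it was at least 2-fold below each of the other 3 arrays, and WT back alone high when it was at least 2-fold above each of the others. Of the 16 lower genes of the axial skeleton, the array labelled Myf5-null was alone low for 13, and WT back was alone high for 0. Of the 25 lower muscle genes, the array labelled Myf5-null was alone low for 0 and WT back alone high for 11, with 14 in neither class. Among all 364 lower genes the numbers were 103 and 57. WT back was also alone high for 6 of the 10 lower genes of neighbouring tissues, which include both lower heart genes (Nppa and Myh6) and all 3 lower liver genes (Afp, Alb and Ttr). Several of the 11 muscle genes, Myl2, Mb, Csrp3 and Myh7 among them, are also expressed in heart. The part of heart tissue in the position of the 11 genes was not tested. These are counts with no test of the difference. The 0 of the muscle genes became 3 without rescaling, 1 with a floor of 50 and 1 without probe sets that share probes.

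Single genes took the same positions. Sox9 was 304 in the array labelled Myf5-null against 1247 in WT back, with 1419.9 and 2078 in the WT and MyoD-null limb. Neb was 452 there and 1317 in WT back, but 172 and 242 in the limb arrays, so the array labelled Myf5-null stayed above both limb arrays. Myh7 read 6642 against 14579, with 4889 and 2867 in the limb, and Ttn 3584 against 7213, with 2121 and 1676. For Myh8 the array labelled Myf5-null was the lowest, at 1145.5 beside 1508 and 1424 in the limb, but by less than 2-fold. WT back thus had the highest signal of these muscle genes, and the array labelled Myf5-null the lowest signal of Sox9.

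**Figure D4:**
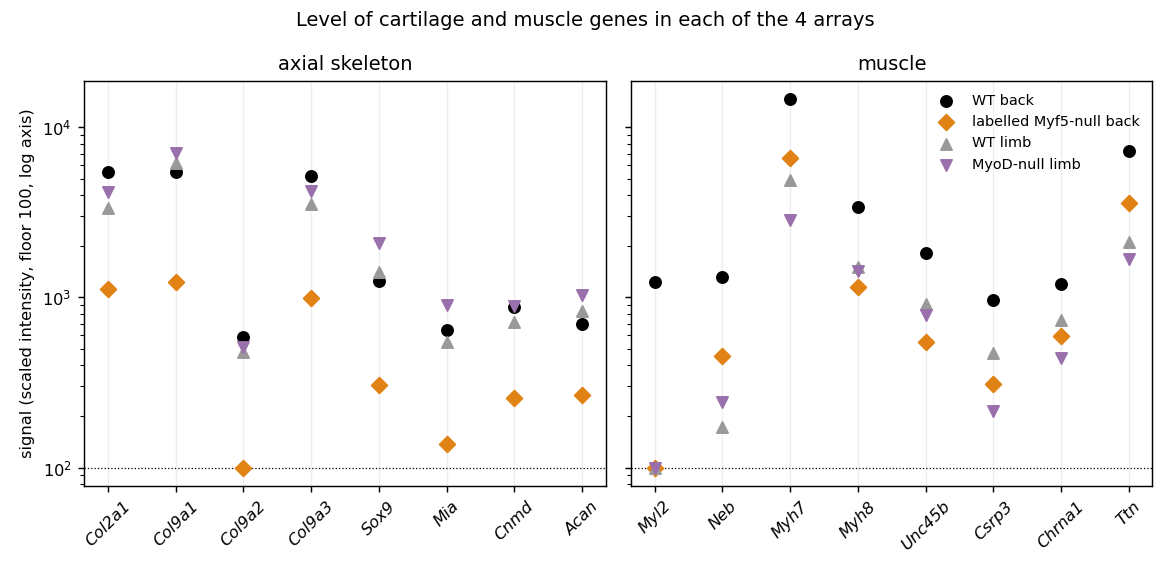
Signal (y axis, scaled intensity, floor 100, log axis) of 8 cartilage genes and 8 muscle genes in each of the 4 arrays, 1 point an array. The array labelled Myf5-null (orange) is the lowest point for all 8 cartilage genes, while for the muscle genes WT back (black) is the highest; for Myl2 the other 3 arrays coincide at the floor.

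Each gene was read over all its measured probe sets. Of the 364 lower genes, 135 had 2 or more, and in 54 of these (40.0%) all had the same sign and in 10 all were at least 2-fold lower (0.151% of the 6626 genes with 2 or more). Of the 808 higher genes, 224 had 2 or more, with 130 of one sign (58.0%) and 15 at least 2-fold in all (0.226%). A counted gene with several probe sets therefore often had a probe set of the other sign, 81 times among the lower and 94 among the higher. In the muscle lists 62 of the 92 further probe sets were below 0, with a median of -0.29. For the axial skeleton they were 35 of 43, with -0.37, and over all genes 5148 of 11254, with 0.06. The cartilage collagens had all 5 of their further probe sets below 0, with a median of -1.02. The further probe sets of fusion and assembly genes did not follow the brightest, with 5 of 11 below 0 and a median of 0.26.

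**Figure D5:**
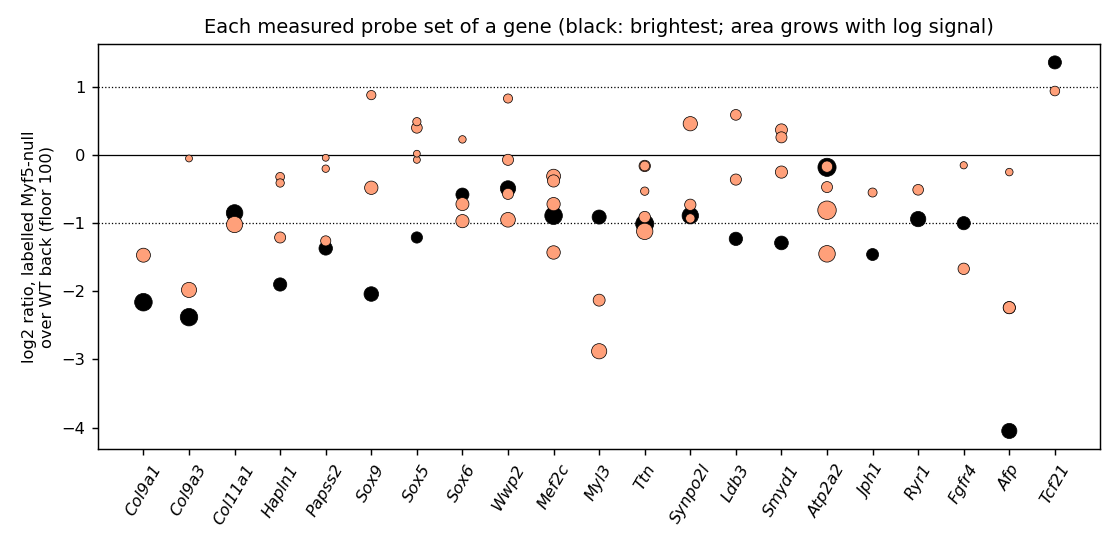
Log2 ratio of every measured probe set, Myf5-null label over WT back (y axis), for genes with several; black marks the brightest probe set, which stands for the gene, and a larger point a brighter signal. Col9a1, Col11a1, Hapln1, Mef2c and Myl3 have all points below 0, while Sox5 and Smyd1 have the brightest alone past 2-fold.

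Neighbouring tissues had as many genes above as below 0. Of 136 measured genes in 15 lists, 68 were below and 68 above 0, with 10 lower (7.35%, against 2.48% of all measured genes), 7 higher (5.15%, against 5.50%) and a median of 0.00. Signals by which the myotome acts on the sclerotome are fibroblast and platelet-derived growth factors, and 9 of 12 of these genes, receptors and targets were below 0, with a median of -0.12 and none counted as lower. Fgfr4, a receptor of muscle progenitors, came closest, at 713 against 357 (just short of 2-fold), with -1.67 and -0.15 in other probe sets. Fgf4 was 139 against under 100 and Fgf6 164 against 257 (0.65), both dim, and the feedback inhibitors Spry1 and Dusp6 were 1963 against 1976 (0.01) and 2079.6 against 1652 (-0.33). Pdgfa and its receptor Pdgfra were 1585 against 1446 (-0.13) and 8355 against 8120.4 (-0.04).

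Connective tissue and dermis had 10 of 15 genes above 0 and a median of 0.09. Its matrix genes were close, with Col1a1 at 14693 against 15645 (0.09), Dcn at 8948 against 8933 (0.00) and Postn at 19895 against 16567 (-0.26). Tcf21, a factor of mesenchyme, was higher, at 266 against 683 (1.36), and by 0.94 in its second probe set. Epidermis had 9 of 11 not below 0 and no gene past 2-fold, with the basal keratin Krt5 at 2455 against 3928 (0.68). Endothelium had 6 of 10 above 0, with Cldn5 at 655 against 1117 (0.77) and Cdh5 at 1291 against 832 (-0.63). Smooth muscle genes were alike, with Acta2 at 38929 against 36656 (-0.09) and Tagln at 1477 against 1598 (0.11). Red blood cell genes had 4 of 7 above 0, with Hbb-y, the embryonic beta globin, at 79891 against 128170.5 (0.68).

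Nerve and glial genes were mixed. Of 16 neuronal genes 10 were below 0, with a median of -0.19. Isl2, a factor of motor and sensory neurons, was 394 against under 100, at least 3.94-fold lower, and Stmn2, a growth cone protein, had 445 against 204 (-1.12) and 0.16 in a dimmer probe set. The brightest probe set of Isl1 did not share the drop of Isl2, reading 341 and 339 (-0.01), though its second one gave -0.77. Chat and Slc5a7, both dim, read under 100 in WT back. They reached 132 and 135.5 in the array labelled Myf5-null, and Mnx1 stayed under 100 in both. Pou4f1, of sensory neurons, was higher, at 111 against 266 (1.26). The axonal proteins Nefl and Gap43 were 483 against 428 (-0.17) and 898 against 928 (0.05). Of 9 Schwann cell and neural crest genes 7 were below 0, with a median of -0.38. Sox10 was 618 against 682 (0.14), but -1.42 (268 against under 100, a bound) and -0.01 in its other probe sets. Erbb3 was 3354 against 2264 (-0.57), Egfl8 455 against 132 (-1.79) and Gfra3 285 against 616 (1.11). Melanoblast genes had 5 of 7 above 0, with Dct, an enzyme of pigment synthesis, at 126 against 375 (1.57). In spinal cord progenitors Pax6 was at the floor against 251 (1.33), Sox2 138 against under 100, and Olig2 and Nkx6-1 were under 100 in both. Macrophage genes had 7 of 10 below 0, with Csf1r at 3419 against 3500.0 (0.03) and Ptprc at 224 against under 100.

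Brown fat shares the Myf5 lineage, but its defining genes Ucp1, Cidea and Pparg were under 100 in both back arrays. Prdm16, which also acts outside fat, was 304 against 122 (-1.32), lower in all 3 probe sets, and 3124 and 2966 in the limb arrays. Among liver genes, Afp was 1652 in WT back against under 100, at least 16.5-fold lower and below 0 in all 4 probe sets, Alb was 609 against 177 (-1.78) and Ttr 215 against under 100. Of the 7 measured liver genes 4 were below 0, and Fga and Fgb were under 100 in both. Heart genes went with them in part, with Nppa at 370.0 against 109.6 (-1.75) and Myh6 at 461 against 139 (-1.73), while 5 of 9 were above 0. The chamber marker Myl7 was under 100 in WT back and 112 in the other back array, and Tnni3 was under 100 in both. The part of such tissue in the signal of muscle genes that heart also expresses, such as Myl2, Myl3, Mb and Csrp3, was not tested. Sftpb and Sftpc, genes of lung, were under 100 in WT back and at least 2.23-fold and 2.27-fold higher in the other array.

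Outside the lists, genes were taken whose measured probe sets, 2 or more, all differed at least 1.5-fold one way. There were 55 such genes lower (0.872% of 6309) and 111 higher (1.76%). The lower ones were led by Xist, the RNA that coats the inactive X chromosome of female cells, at 8614 in WT back against 2225 (-1.95), with -3.08 and -2.33 in its other probe sets, and 7999.6 and 8069.9 in the limb arrays. Next were Ehbp1l1 at 698 against 257 (-1.44), Smtnl2 at 567 against 214 (-1.40), Glrb, a subunit of the glycine receptor, at 422 against under 100 and Bpnt1 at 430.4 against 127 (-1.76). Hjv, hemojuvelin, which skeletal muscle expresses, was 1427 against 667 (-1.10). Tmem47 was 1352 against 457 (-1.57), Cpm 1516 against 726 (-1.06) and Klhl13 8059 against 3972 (-1.02).

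Because Xist led, other genes of the sex chromosomes were read after its values were seen. Eif2s3x, an X-linked gene that escapes inactivation, was 6976 against 4419 (-0.66) and below 0 in all 3 probe sets, and Kdm6a, which also escapes, was 810.4 against 418 (-0.95) but 0.19 in a second probe set. Kdm5c was 978 against 943 (-0.05). The Y-linked genes Eif2s3y and Kdm5d were 362 against 398 (0.14) and 193 against 205 (0.09), with 0.54 in a dimmer probe set of Kdm5d, and Uty was 116 against 157 (0.44). The sources used here do not give the sex of the embryos, and its part in other ratios was not tested.

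Several of the leading higher genes of this kind were dim in WT back. Dcdc2b was 149 against 422, Rnf225 107 against 289 (1.42), Fam161a 104 against 278 (1.42), Ace 135 against 354 (1.39) and Cbln1 101 against 337 (1.73). Fbxo36, also among the leading ones, was brighter, at 215 against 1368 (2.67), with 1.32 in its other probe set. Among genes under the floor in one array, 129 fell below it in the array labelled Myf5-null from 200 or more (0.972% of 13276) and 392 in WT back (2.95%). Of the first kind were Cyp26b1, which breaks down retinoic acid, at 494 in WT back and 956 and 903 in the limb arrays, Pcolce2 at 339 and Pln, the inhibitor of the slow calcium pump, at 405, with 0.44 in another probe set of Pln. Slco2b1 was 505 in WT back and just under 100, with 0.38 as the highest of its other probe sets. Of the second kind were Plekhh3 at 643 in the array labelled Myf5-null, Tbc1d10a at 626, Nkain4 at 518 and Glis1 at 468.

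Bright genes were counted apart. Of 37 lower genes with 1000 or more in the brighter array (0.743% of 4981), 9 were muscle genes, 6 of the axial skeleton, 1 of a neighbouring tissue and 21 in no list. How many of the 4981 genes belong to each kind is not given here, so these counts have no share beside them. Of 22 higher genes of that brightness (0.442%), 0 were in those lists, though Flnc, the filamin of the muscle Z disc, which no list holds, was among them at 1667 against 3455 (1.05), with 0.96 in its other probe set. Rgcc, also unlisted, was 397.6 against 1026 (1.37), with 0.82 in its other probe set. Among the unlisted lower ones, named here after their values were seen, Ccn2, a growth factor of cartilage and connective tissue, was 2462 against 912 (-1.43), C1qtnf3, a secreted protein, 1505 against 701 (-1.10) and Tceal7 1767 against 879 (-1.01). Ptp4a2 was 12889.9 against 4210.2 (-1.61), with 0.10 as the highest ratio among its 4 probe sets.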

How the data were processed

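Per the labels' protocols, RNA came from a Trizol extraction and 6 µg of it went into biotinylated cRNA. The values the authors deposited are MAS5 intensities, 1 signal per probe set on a linear scale, per the submitters' processing notes, with the version not given. Their trimmed means were alike in the 4 columns (1477 to 1479). The arrays were rescaled to a 2% trimmed mean of 500, a floor of 100 was applied, and differences of log2 signals formed the ratios (Python 3.11.15, pandas 2.3.3). Of 45101 probe sets, 34958 have 1 gene symbol, 932 several and 9211 none here, and 64 are controls. Each gene is read from the probe set brightest on average over the 4 arrays, and a gene is measured at 100 in 1 back array. In a ratio against a signal under 100 the fold is a lower bound. The number of arrays limits the precision.

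Named are all myogenic regulators, up to 8 members of a list each way at least 2-fold different, and some of the first 3 of each list. Further members that show both directions are also named. Outside the 33 lists these are the 12 genes each way with all probe sets at least 1.5-fold and the 8 largest bounds, given in part. Any other member named was chosen after its values were seen. The members and lists were chosen with earlier results of these data known, and the counts of arrays standing alone were added after seeing the data. The 488 listed symbols comprise 406 measured genes, 49 under the floor and 33 with no probe set of that single symbol. Alternatives were no rescaling, quantile normalization, loess with a span of 0.3 (statsmodels 0.14.6), floors of 50 and 200, a pseudocount of 100, the median over probe sets, and leaving out shared-probe probe sets. The steps were tested on simulated data.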

Additional observations from a re-analysis of the deposited data

Results flagged for a closer look

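For 5 listed genes the mutant and WT arrays differed at least 2-fold one way in the back and at least 2-fold the other way in the limb. The difference was not tested, since each side is 1 array, and such genes outside the lists are not counted here. Among all measured genes, 5.50% were at least 2-fold higher and 2.48% lower in the back pair. In the limb pair 2.30% were at least 2-fold higher and 5.21% lower. Tcf21 had a log2 ratio of 1.36 in the back and -1.27 in the limb, Dct 1.57 and -1.06, Pou4f1 1.26 and -1.17, and Sftpc 1.18 and -1.10. Ptprc went the other way, at -1.16 in the back and 1.02 in the limb. The brightest of them was Tcf21, at 683 in the array labelled Myf5-null, and the others peaked at 375 (Dct), 266 (Pou4f1), 227 (Sftpc) and 224 (Ptprc).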

How the results depend on the processing

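The medians of the sarcomere (-0.59 to -0.73), calcium, metabolism, junction, progenitor, cartilage matrix, sclerotome and tendon lists stayed below 0 and within 0.38, the spread between probe sets, under all 8 alternatives. That of the cartilage collagens was -1.57 without shared-probe probe sets. Counts moved by over 1.5 times: lower genes were 1231 without rescaling, where the floor lies deeper, 123 with a floor of 200 and 171 with a pseudocount, and higher genes 2087, 152 and 431, with 520 after quantile normalization and 273 after loess. A floor of 50 cannot change these counts by construction. Muscle genes for which the array labelled Myf5-null was alone low numbered 3 without rescaling, 1 with a floor of 50 and 1 without shared-probe probe sets. Of 113 named genes 32 held within 0.38 throughout and 5 turned their sign: Ccdc180 (-1.21) and Ttr (0.04) without rescaling, Slco2b1 (0.17), Smyd1 (0.01) and Sox5 (0.02) as medians over probe sets, and Sox5 (0.40) without shared-probe probe sets. The cause of the other shifts was not tested. The positions among the 4 arrays were not run under loess or the median over probe sets. With 1 array a group, no array can be left out.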

Other observations

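Genes that mark position along the body were close between the back arrays. Of 28 measured Hox genes 1 was at least 2-fold different, Hoxd3 at 150.4 against 312 (1.05), and the median log2 ratio was 0.01. That is 3.57% higher and 0 lower, beside 5.50% and 2.48% of all measured genes, so the count is near the general share. The brightest were Hoxa9 at 4973 against 4977 (0.00), Hoxc8 at 3197 against 3010.2 (-0.09) and Hoxa5 at 2101 against 2159.9 (0.04), while Hoxd13, of the distal limb, was 157 against 167 in the back and 12108 in WT limb. Of the 9 measured limb factors, 2 were lower in the array labelled Myf5-null (22.2%, against 2.48% of all measured genes). They were Tbx5 and Shox2. Tbx5 was 273 against under 100, at least 2.73-fold lower, but -0.09 in its other probe set (164 against 154). Shox2 was 761 against 299 (-1.35), with 1.23 in a dim probe set. Both were far brighter in the limb, at 1153 and 3760.1 in WT limb. Hand2 was 909 against 1126 (0.31) and Msx1 322 against 387 (0.27).

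Cell cycle genes were alike, with all 11 between -0.37 and 0.12 and Mki67 at 10653 against 9925 (-0.10). Of 14 measured neurotrophic factors 2 were higher (14.3%, against 5.50% of all measured genes), and none was at least 2-fold lower. The higher ones were Bdnf at under 100 against 241, at least 2.41-fold, and Ntf5 at 198 against 413 (1.06). Igf1 was 10929 against 9837 (-0.15), Ptn 22817 against 24539.9 (0.11) and Gdnf under 100 in both. In the stress list Atf3 was 265 against 125 (-1.09) and Ddit3 219 against 102 (-1.11), with 0.58 in a dim probe set, while Jun (1527 against 1510.0) and Egr1 (2044 in both) were level.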
